A study of Mus musculus with 32 samples.

Results

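The 7 genes Ager, Hopx, Aqp5, Pdpn, Rtkn2, Akap5 and Emp2 are markers of the alveolar type 1 cell, taken by name from the 29511 genes counted, and all 7 were found in both the count and the FPKM table. RNA of whole lungs and of primary tumors was sequenced in FVB/N female mice with a constitutive host knockout of Clic4 (KO) or without it (WT), all virgin littermates of six- to eight-weeks. The lung groups were 4 WT control, 4 KO control, 6 WT 14-day and 6 KO 14-day lungs. The 14-day mice carried an orthograft of 6DT1 cells, grown orthotopically over 14 days. The 6DT1 line is a mammary tumor line of FVB/N origin that keeps its own Clic4 in both hosts. The control lungs came from mice without a tumor, and the labels give no sampling time for them. The 6 tumors from WT and 6 from KO hosts came from the same time point and serve here only to show how far the genes are particular to lung. The labels name each sample as a separate one of its group, without saying which animals were littermates.

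Alveolar type 1 cells are the thin, flat epithelial cells that cover most of the gas exchange surface and share a basement membrane with the capillary endothelium. They arise in development and after injury from progenitors that include alveolar type 2 cells, the cuboidal makers of surfactant, and their gene program is held by the lung transcription factor Nkx2-1 together with the Hippo pathway effectors Yap and Taz. Most of the genes belong to known classes of protein: Ager encodes the receptor for advanced glycation end products, which binds S100 proteins and Hmgb1; Aqp5 a water channel of the apical membrane; Pdpn the membrane mucin podoplanin, which is also made by lymphatic endothelium, mesothelium and some fibroblasts; Hopx a homeodomain protein that does not bind DNA itself; Akap5 a scaffold that holds protein kinase A, calcineurin and adenylyl cyclase; and Emp2 a tetraspan membrane protein that associates with integrins. In whole lung RNA, fewer alveolar type 1 cells and less RNA per cell cannot be told apart.

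Clic4 itself checked the labels. Its FPKM was 165 ± 6.61 in WT control lungs and 181 ± 30.6 in WT 14-day lungs, against 61.2 ± 5.98 in KO control and 65.1 ± 7.49 in KO 14-day lungs (mean ± s.d.), and no KO lung reached the lowest WT lung. The knockout removes an exon, so counts from the rest of the gene remain. The total count of a sample ran from 4446323 to 8318711, with overlapping ranges in all groups. Replicates of a group always differed by more than sampling noise, with a chi-squared per degree of freedom of 2.55 to 16.5 over 72 pairs. Defining markers of alveolar type 2 cells, airway, endothelium and mesothelium were present in every lung.

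Per transcript length, in FPKM (fragments relative to the length of the transcript and the size of the library), the genes were among the most abundant of the lung. Ager stood at 790 ± 66.1 FPKM over the 20 lungs, and only 46 gene symbols had a higher mean. Emp2 followed at 248 ± 13.4 and Hopx at 214 ± 18.3 FPKM. Rtkn2 stood at 104 ± 8.92 and Akap5 at 104 ± 5.87 FPKM, while Aqp5 at 77.7 ± 9.17 and Pdpn at 66.4 ± 13.1 FPKM closed the order, with 904 symbols above the last. The order was firm at some steps and not at others. Ager exceeded Emp2 in 20 of 20 lungs by 2.67 to 3.701 times, Hopx exceeded Rtkn2 in 20 of 20 lungs by 1.75 to 2.62 times, and Akap5 exceeded Aqp5 in 20 of 20 lungs by 1.08 to 1.70 times. Rtkn2 and Akap5 could not be ordered, since Rtkn2 was the higher in 12 of 20 lungs. Emp2 exceeded Hopx in 19 of 20 lungs and Aqp5 exceeded Pdpn in 18 of 20, but within a group the ranges of each of these pairs met, in 3 and in 4 of the 4 lung groups.

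**Figure D1:**
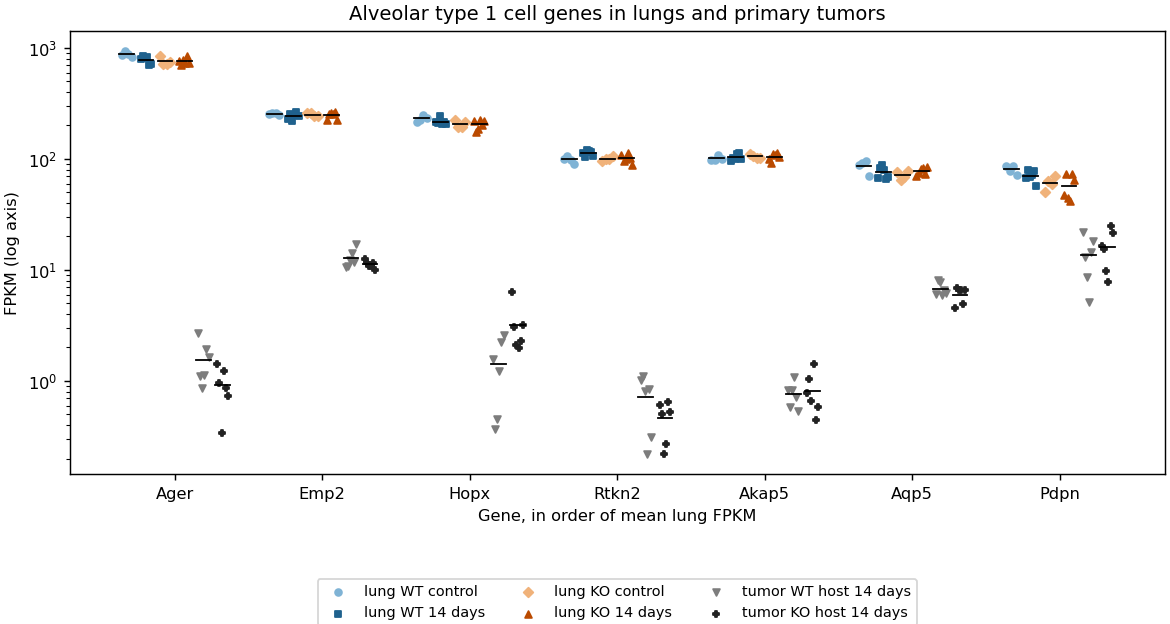
FPKM on a log axis of the 7 genes, ordered by their mean over lungs, with 1 point per sample, a colour and symbol per group and a bar at the group mean. For each gene the 4 lung groups lie close together and all 20 lungs lie above all 12 tumors, with the smallest gap for Pdpn, at 41.5 FPKM in the lowest lung and 24.7 in the highest tumor. How many of all genes lie apart in this way was not counted.

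All 7 genes were lower in primary tumors than in the 14-day lungs of the same host genotype, in both hosts. Called here were genes at a false discovery rate (FDR) under 0.05 and a change of at least 2-fold, and by this rule 22.3% of all genes tested were lower in the tumors of WT hosts and 21.2% in those of KO hosts, so that being lower is in itself no rare property. The size set these genes apart among themselves. Ager, the receptor, had 0.87 to 2.68 FPKM in tumors of WT hosts and 0.34 to 1.42 in tumors of KO hosts, from 2 to 19 counts a tumor, a log2 difference of -8.74 ± 0.14 (SE) and -9.42 ± 0.15. The differences were smaller in size for Rtkn2, at -7.29 ± 0.16 and -7.59 ± 0.17, for Akap5, at -6.93 ± 0.14 and -7.15 ± 0.14, and for Hopx, at -7.18 ± 0.21 and -6.01 ± 0.19. These 4 genes reached at most 2.68, 1.11, 1.41 and 6.29 FPKM in any tumor.

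Emp2, Aqp5 and Pdpn were retained further. Emp2 kept 10.1 to 17.1 FPKM in tumors, with log2 differences of -4.20 ± 0.11 in WT and -4.37 ± 0.11 in KO hosts. Aqp5, known from glandular epithelia as well as lung, kept 4.57 to 8.04 FPKM, with -3.43 ± 0.10 and -3.62 ± 0.10. Pdpn kept 5.15 to 24.7 FPKM, on average 22.2% of its lung level, with -2.38 ± 0.24 and -1.81 ± 0.23. The least significant of these results, Pdpn in KO hosts, had an adjusted p of 1.31e-07. Lung RNA was scarce in the tumors: Sftpc, the type 2 cell surfactant protein with 8126 and 8669 FPKM in the 14-day WT and KO lungs, averaged 0.18 and 0.0417 FPKM in the tumors, and Nkx2-1 was listed at 0 in all of them. Of 17 other genes of the type 1 cell, 16 were also called lower in tumors in each host, and Fstl3, an inhibitor of activin at 5.30 and 4.82 FPKM in tumors of WT and KO hosts, was the exception.

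The genes lie on 7 chromosomes (GRCm38, GENCODE M21), each as a protein-coding gene. Ager spans bases 34597862 to 34600936 on the plus strand of chromosome 17, Hopx 77086988 to 77115121 on the minus strand of chromosome 5, and Aqp5 99590782 to 99594829 on the plus strand of chromosome 15. Pdpn spans 143267431 to 143299564 on the minus strand of chromosome 4, Rtkn2 67979570 to 68059740 on the plus strand of chromosome 10, Akap5 76324891 to 76334153 on the plus strand of chromosome 12, and Emp2 10281749 to 10313968 on the minus strand of chromosome 16. An antisense gene overlaps 2 of them, Hopxos over Hopx and Gm16212 over Rtkn2, but with 720 counts over all 32 samples against 23826 for Hopx, and 80 against 30914 for Rtkn2. Pdpn is the exception in position: it shares its chromosome with Clic4, and the gap between the genes is 7.99 Mb.

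Promoter sequence was at hand for 6 of the 7 genes in RefSeq (GRCm38.p6). The 250 bases before the start site are shown for Ager, the most abundant of the genes and the steepest between tissues, and for Pdpn and Akap5, the windows that hold a match to CACTNNAG, a form of the core recognised by Nkx2-1. Capitals mark that match, which in both windows reads on the opposite strand. The Ager window is chr17:34597600-34597849 on the plus strand, the Pdpn window chr4:143299565-143299814 on the minus strand and the Akap5 window chr12:76324641-76324890 on the plus strand.
Ager: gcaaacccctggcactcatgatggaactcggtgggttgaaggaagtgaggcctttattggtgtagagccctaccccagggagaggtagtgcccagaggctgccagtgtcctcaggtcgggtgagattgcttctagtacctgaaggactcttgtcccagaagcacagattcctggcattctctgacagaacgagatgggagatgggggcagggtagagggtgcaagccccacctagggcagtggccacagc
Pdpn: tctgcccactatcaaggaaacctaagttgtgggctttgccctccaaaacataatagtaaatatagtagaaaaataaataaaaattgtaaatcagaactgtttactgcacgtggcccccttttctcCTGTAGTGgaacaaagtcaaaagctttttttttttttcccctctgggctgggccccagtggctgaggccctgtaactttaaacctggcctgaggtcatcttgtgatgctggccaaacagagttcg
Akap5: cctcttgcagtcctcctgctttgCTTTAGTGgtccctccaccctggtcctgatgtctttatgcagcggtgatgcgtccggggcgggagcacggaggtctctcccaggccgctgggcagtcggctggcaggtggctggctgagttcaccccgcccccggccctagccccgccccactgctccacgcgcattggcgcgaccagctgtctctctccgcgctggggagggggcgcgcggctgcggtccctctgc

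The match in Pdpn spans positions -125 to -118 from the start site and that in Akap5 -227 to -220. On both strands, CACTNNAG occurs in 12.7% of the 27025 promoter windows of this length. No window of the 6 genes holds GGAATG, the core bound by Tead factors and present in 12.6% of windows, or TATAAA, present in 13.0%. GGGCGG, the GC box, occurs in the windows of Aqp5, Akap5 and Emp2 and in 32.9% of all windows. In the GENCODE annotation, 246 of the 250 bases of the Aqp5 window lie inside an exon of Aqp5 itself, so that there this window is not upstream sequence. These windows differ in composition: the Ager window has 57.6% GC with 3 CpG dinucleotides and the Pdpn window 43.2% with 2, whereas the Akap5 window has 70.0% with 20, beside a median of 52.0% and 6 over all windows. The matches describe letters in these windows only.

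No gene of the 7 was called in any comparison between lung groups. A gene was called there at an FDR under 0.25 and a change of at least 1.5-fold, and by that rule 0.574% of the 16029 genes tested were called for tumor-bearing against control WT lungs, 0.262% for the same in KO lungs, 0.212% for KO against WT lungs at 14 days and 0.231% for KO against WT control lungs. Averaged over genotypes, 0.574% were called for tumor-bearing against control lungs, and averaged over control and 14-day lungs 0.237% for KO against WT. For the interaction, the difference between the KO and the WT response to a tumor, 0.0499% passed the FDR alone. A count of 0 among 7 genes lies near these shares and is no result about the genes. The intervals say more. In WT and in KO tumor-bearing lungs, and for KO against WT at 14 days, the 95% interval of every gene lay inside 1.5-fold in both directions, and in control lungs the same held for all but Pdpn.

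**Figure D2:**
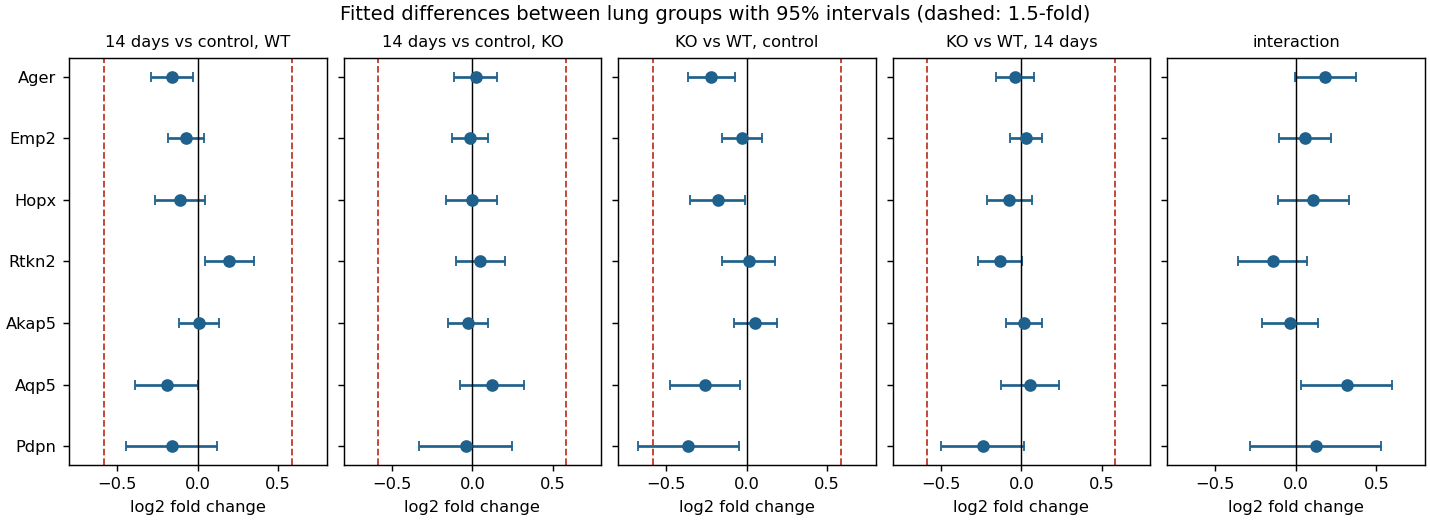
Fitted log2 differences (points) with 95% intervals (bars) of the 7 genes in 5 comparisons of lung groups, with dashed lines at 1.5-fold where that limit applied. Every point lies within 0.37 of 0 on the log2 scale, and the 1 interval that passes a dashed line is that of Pdpn in KO against WT control lungs, from -0.68 to -0.05.

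Below these limits, some of the genes leaned. An unadjusted p under 0.05 was reached by 2 of the 7 genes in the WT response to a tumor (Ager and Rtkn2), by none in the KO response and at 14 days between genotypes, by 4 between genotypes in control lungs (Ager, Hopx, Aqp5 and Pdpn), by Aqp5 in the interaction, by Rtkn2 in the averaged response to a tumor, and by 3 in the averaged genotype difference (Pdpn, Ager and Hopx). Over all genes tested that level was reached by 8.34 to 11.98% of genes in these comparisons. The median log2 difference of the 7 genes was -0.11 for the WT response, -0.01 for the KO response, -0.04 for KO against WT at 14 days and -0.18 for KO against WT control lungs, where the median over all genes was 0.00 in each. With offsets for the GC content of genes, described further on, the median in control lungs was -0.0146 and that of the WT response -0.0387. Comparisons that share the 4 WT control lungs are not independent of each other.

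**Figure D3:**
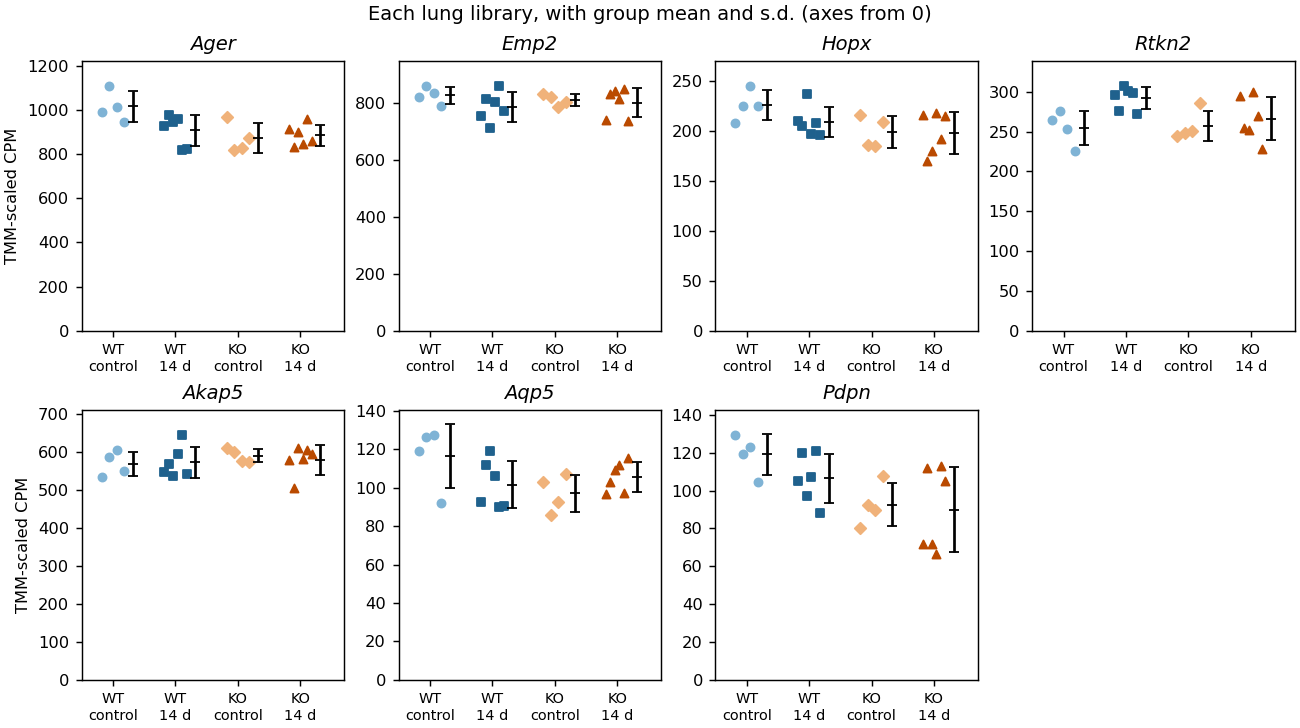
TMM-scaled CPM of the 7 genes in each of the 20 lung libraries, 1 panel per gene with the vertical axis from 0, and to the right of each group its mean with the s.d. as a bar. The groups compared overlap for every gene. Of all 16029 genes tested, 0.549 to 7.60% were without overlap in these comparisons, so the overlap of the 7 is no result about them. The 6 KO 14-day lungs lie apart from each other for Pdpn, 3 at 66.5 to 71.8 and 3 at 105.0 to 112.9 CPM.

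Ager was highest in the WT control lungs. In CPM, counts relative to the TMM-scaled library total, a unit for comparing 1 gene between samples, the 4 WT control lungs had 992, 1110, 1014 and 947, and the 4 KO control lungs 966, 817, 829.2 and 871. The WT 14-day lungs ran from 818 over a median of 936 to 979, and the KO 14-day lungs from 831 over 879 to 957. Of the 4 KO control lungs 3 lay below every WT control lung, as did 4 of the 6 WT 14-day lungs, and otherwise the groups overlapped. The log2 difference was -0.22 ± 0.07 between KO and WT control lungs (adjusted p = 0.272), -0.16 ± 0.06 in the WT response (adjusted p = 0.333), 0.02 ± 0.06 in the KO response (adjusted p = 0.946) and -0.04 ± 0.06 between genotypes at 14 days (adjusted p = 0.911). None passed, and the interaction of 0.18 ± 0.09 did not pass either (adjusted p = 0.597). With GC offsets, described further on, the KO response and the interaction turned, to -0.0871 and -0.0617, and the difference between control genotypes was -0.01.

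Of 6 listed ligands of Ager 5 could be tested, and 2 were called: S100a8 and S100a9, the calprotectin subunits carried by neutrophils, rose in WT tumor-bearing lungs, by a log2 difference of 2.02 ± 0.54 (adjusted p = 0.164) and 2.05 ± 0.56 (adjusted p = 0.169). In FPKM, S100a8 went from 29.4 to 118 on average and S100a9 from 55.4 to 228. In KO lungs the fitted differences were 1.67 ± 0.54 (adjusted p = 0.304) and 1.68 ± 0.55 (adjusted p = 0.304), which did not pass, and no ligand passed in the interaction. Averaged over genotypes both rose, by 1.84 and 1.86 (adjusted p = 0.0439 for each). Hmgb1, S100a4 and S100a6 were not called in any comparison of lungs. The neutrophil list, which holds the 2 calprotectin genes too, moved with them: 4 of its 6 genes were called higher in the WT response, 2 in the KO response and 6 in the average, and its summed level ran from 44.2 to 84.4 CPM in WT control lungs and from 89.6 to 329 in WT 14-day lungs. In KO mice the ranges overlapped, at 53.7 to 94.7 CPM in control and 36.7 to 362.2 in 14-day lungs, 1 of which lay below every control.

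Aqp5, like Ager, had its highest mean in WT control and its lowest in KO control lungs. The WT control lungs had 119, 127, 128 and 92.2 CPM and the KO control lungs 103, 85.9, 92.3 and 107, so that the lowest WT control lung lay among the KO lungs. The WT 14-day lungs ran from 89.8 over 99.4 to 119 and the KO 14-day lungs from 96.5 over 106 to 116 CPM. The log2 differences were -0.26 ± 0.10 between control genotypes (adjusted p = 0.358), -0.19 ± 0.10 in the WT response (adjusted p = 0.434), 0.12 ± 0.10 in the KO response (adjusted p = 0.755), and 0.32 ± 0.14 for the interaction (adjusted p = 0.53). With GC offsets these were -0.01, -0.04, -0.0045 and 0.03. Among the other aquaporins listed, Aqp1, the channel of capillary endothelium, stood at 271 to 280 FPKM in the 4 groups with differences of at most 0.05 in size, and Aqp4, at 1.38 to 1.99 FPKM, had its largest at 0.54 ± 0.21 between control genotypes (adjusted p = 0.338). Neither was called, and Aqp3 and Aqp9 were too low in lung to be tested.

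Pdpn had the widest spread of the 7 genes and the lowest means in KO lungs. Its CPM was 130, 119, 123 and 105 in WT control lungs and 80.0, 92.5, 89.7 and 108 in KO control lungs. The WT 14-day lungs ran from 88.3 over 106 to 121 CPM. The 6 KO 14-day lungs had 71.8, 112, 71.5, 66.5, 113 and 105 CPM. Of the 4 KO control lungs 3 lay below every WT control lung, and 3 of the 6 KO 14-day lungs lay below every WT lung of either kind while the other 3 lay among them. The log2 difference between genotypes was -0.36 ± 0.15 in control lungs (adjusted p = 0.379), -0.24 ± 0.12 at 14 days (adjusted p = 0.634) and -0.30 ± 0.10 averaged over both. This last, 1.23-fold lower in KO lungs, met the FDR limit alone (adjusted p just under the limit, 0.25 when rounded) but changed by less than 1.5-fold, and was not called. Its within-group s.d. on the log2 scale, 0.24, exceeded that of 92.8% of the 3866 genes with at least 50 CPM, whose median was 0.11; Akap5 and Emp2 had 0.09 and 0.08.

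Markers of other cells that make podoplanin were set beside it. Lyve1, a receptor of lymphatic endothelium that some macrophages carry as well, was lower in KO than WT lungs at 14 days, by a log2 difference of -0.92 ± 0.18 (adjusted p = 0.0491). It was also lower in the average over control and 14-day lungs (adjusted p = 0.103). Flt4, the lymphatic growth factor receptor, was lower by less than 1.5-fold, -0.27 ± 0.06 in that average (adjusted p = 0.065), and not called. The other lymphatic markers did not share a direction at 14 days, with Mmrn1 at 0.07 ± 0.11, Ccl21a at 0.11 ± 0.12 and Prox1 at -0.27 ± 0.20 (adjusted p of 0.927, 0.867 and 0.791). Of the 5 lymphatic markers Lyve1 was the only one called, the summed level of the list ran from 274 to 381 CPM in WT and from 184 to 283 in KO 14-day lungs, and its defining factor Prox1 was at 0.31 to 1.03 FPKM in all lungs. The 4 mesothelial markers were not called, with summed levels of 127 to 146 CPM in WT and 146 to 154 in KO control lungs. Within groups, the deviations of Pdpn were not related to those of the lymphatic, mesothelial or fibroblast lists past the adjusted limit. The part of these cells in the level of Pdpn was not tested. Since the knockout was made on a mixed background and then backcrossed, with purity checked by microsatellites, an effect of the host genotype and one of the chromosome 4 segment around Clic4 cannot be told apart for Pdpn. The 7 partners of podoplanin, which include its platelet receptor Clec1b, its chemokine Ccl21a, Cd44 and the ezrin and moesin that tie it to actin, were not called in any comparison of lungs. Clec1b met the FDR limit alone in the averaged response to a tumor, at 0.38 ± 0.11 (adjusted p = 0.151). So did the moesin gene Msn, at 0.08 ± 0.03 (adjusted p = 0.223).

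Hopx lay at 208, 225, 245 and 225 CPM in WT control lungs and at 216, 186, 185 and 209 in KO control lungs. The 14-day lungs ran from 196 over 206 to 237 in WT and from 169 over 203 to 218 in KO mice. The groups overlapped throughout, and the difference between control genotypes, -0.18 ± 0.08, did not pass (adjusted p = 0.405). None of 12 regulators of the type 1 program was called in lungs, among them Nkx2-1, Yap1, Wwtr1 (which encodes Taz) and Tead1. Nkx2-1 had 14.4 and 16.0 FPKM in WT control and 14-day lungs and 13.4 and 14.0 in KO lungs, and its averaged genotype difference was -0.17 ± 0.08 (adjusted p = 0.415). Foxa1, a forkhead factor of lung epithelium, met the FDR limit alone in the averaged response to a tumor, at 0.32 ± 0.12 (adjusted p = 0.237), under 1.5-fold. Tead1, the DNA-binding partner of Yap and Taz, had the smallest p of the list, at -0.19 ± 0.07 between genotypes at 14 days (adjusted p = 0.412). The same held for 5 target genes of Yap and Taz, with Ctgf, a matricellular protein, at -0.34 ± 0.10 between genotypes at 14 days (adjusted p = 0.283).

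Rtkn2 had a higher mean in tumor-bearing than in control WT lungs. It had 265, 276, 254 and 226 CPM in WT control lungs, and 273 over a median of 297 to 308 in WT 14-day lungs, 5 of which lay above the highest control. In KO mice the controls had 244, 248, 250 and 286 CPM and the 14-day lungs 228 over 262 to 300. The log2 difference was 0.20 ± 0.07 in the WT response (adjusted p = 0.305), 0.05 ± 0.07 in the KO response (adjusted p = 0.887) and -0.13 ± 0.06 between genotypes at 14 days (adjusted p = 0.603). None was past the limits.

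Akap5 and Emp2 varied least. Akap5 had 536 to 605 CPM in WT control lungs, 536 to 646 in WT 14-day, 575 to 611 in KO control and 504 to 612 in KO 14-day lungs, and its differences in the 4 comparisons of 2 groups were -0.03 to 0.05 on the log2 scale. Emp2 had 790 to 861, 712 to 859, 785 to 831 and 735 to 848 CPM in the same groups, with differences of -0.07 to 0.03. The intervals of these differences ran no lower than -0.19 and no higher than 0.19. No partner of Akap5 (8 genes of kinase A, calcineurin and adenylyl cyclase) and no gene among 7 other partners, which include the integrin genes linked to Emp2, was called. Ppp3cb, a catalytic subunit of calcineurin, met the FDR limit alone in the averaged genotype difference, at 0.15 ± 0.04 (adjusted p = 0.205), and Hdac2, a histone deacetylase, in the WT response, at 0.22 ± 0.07 (adjusted p = 0.227).

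The GC content of the transcripts was set beside these results. The exonic GC content of Ager was 59.4% and that of Aqp5 60.6%, higher than in 95.9 and 98.0% of the tested genes, whose median was 49.3%, while the other 5 genes had 45.2 to 49.8%. In each lung, the slope of a library's log2 CPM over GC, relative to the mean of all lungs, gives a GC trend. It ran from 0.027 to 0.17 per 10 percentage points of GC in WT control lungs and from -0.13 to 0.023 in KO control lungs, without overlap, and from -0.16 to 0.08 in WT and -0.07 to 0.07 in KO 14-day lungs. Within groups, the deviations of Ager followed the trend, with r = 0.77 (permutation p = 0.00033, adjusted p = 0.0127) and rho = 0.80 (permutation p = 0.00013, adjusted p = 0.00501) over 20 lungs, and r = 0.69 without the 2 lungs farthest in Ager. For Aqp5 r was 0.64 (adjusted permutation p = 0.13), for Hopx, of GC content 46.7%, 0.63 (adjusted permutation p = 0.0901), and for Akap5 -0.02 (adjusted permutation p = 0.953).

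**Figure D4:**
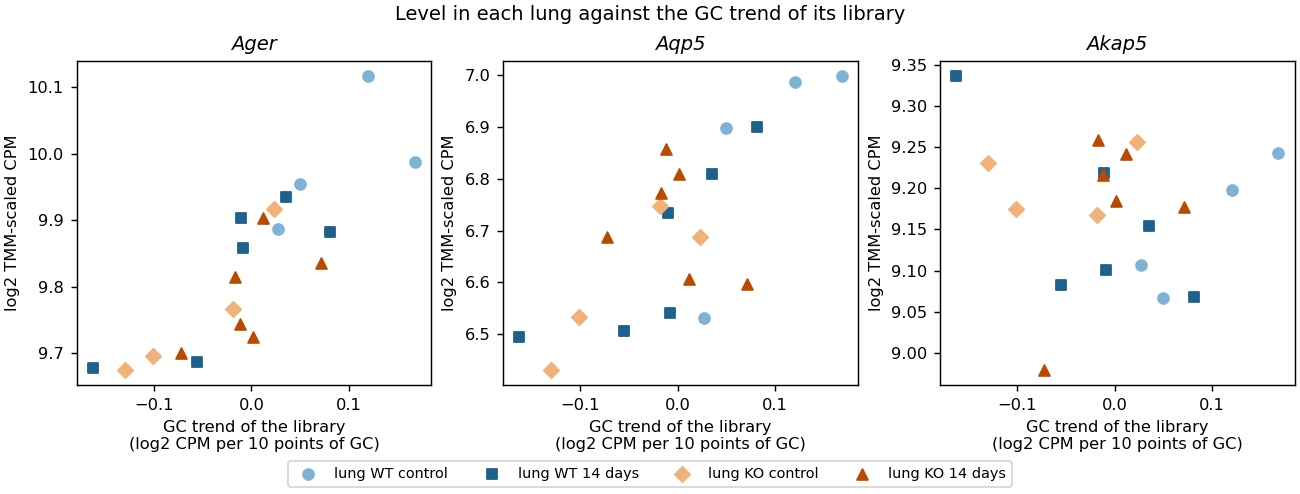
Log2 CPM of Ager, Aqp5 and Akap5 in each of 20 lungs against the GC trend of its library, in log2 CPM per 10 percentage points of GC, with a colour and symbol per group. Ager and Aqp5 tend to be higher where the trend is higher, and Akap5 shows no such order. The WT control lungs, at 0.03 to 0.17, lie to the right of all KO control lungs. Their range overlaps those of the tumor-bearing lungs of both genotypes.

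With offsets that remove the GC trend of each library, added after seeing the data, the differences of Ager and Aqp5 between KO and WT control lungs went from -0.22 and -0.26 to -0.01 and -0.01, and those of the WT response from -0.16 and -0.19 to -0.03 and -0.04. The interaction of Ager turned from 0.18 to -0.06 and that of Aqp5 went from 0.32 to 0.03. In contrast, the genotype difference of Pdpn was -0.36 in controls and -0.23 at 14 days with the offsets, Hopx stood at -0.21 between control genotypes, and Rtkn2 at 0.17 in the WT response, all near their values without them. No member was called with the offsets. The WT and KO control lungs did not overlap in the trend, so an effect of the trend and one of the host genotype cannot be told apart between them. The cause of the trend was not tested.

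None of the 17 other genes of the type 1 cell was called in any comparison of lungs, a count near the shares called over all genes. The smallest adjusted p in the WT response was that of Gprc5a, an orphan receptor of the lung epithelium, which met the FDR limit at -0.32 ± 0.07 (adjusted p = 0.101) but changed by less than 1.5-fold. In the KO response Col4a3, a chain of the alveolar basement membrane, likewise met the FDR alone, at -0.23 ± 0.06 (adjusted p = 0.211). Averaged over genotypes, Gprc5a, Col4a3, Krt7 and Cldn18 met the FDR limit alone in the response to a tumor. They stood at -0.20, -0.15, -0.14 and -0.09 (adjusted p = 0.107, 0.151, 0.2125 and 0.2225), whereas Cyp2b10 stood at 0.19 (adjusted p = 0.279). The median log2 difference of the list was -0.05 in the WT response, -0.04 in the KO response, -0.08 between genotypes at 14 days and -0.06 in controls, and 12 of the 17 had lower means in KO than WT lungs at 14 days. Its summed level ran from 5739 to 6809 CPM over all lungs, that of the 7 genes from 2784 to 3305. Of 6 genes of the transitional state between type 2 and type 1 cells 5 could be tested, among them Krt8 and Lgals3, and none was called, the smallest p being that of Sfn in the KO response, at 0.42 ± 0.22 (adjusted p = 0.617), and Krt8 stood at 52.3 to 59.6 FPKM in the 4 groups. The 10 type 2 cell markers, too, had no call, with summed levels of 11170 to 15910 CPM over all lungs, and all 10 had lower means in tumor-bearing than in control WT lungs, with a median of -0.17. In KO mice 8 of the 10 had lower means in tumor-bearing lungs, with a median of -0.13, and Sftpb and Etv5 stood at 0.04 and 0.06. Napsa, a protease that processes surfactant proteins, had the smallest p of the list and met the FDR limit alone in the averaged response, at -0.21 ± 0.05 (adjusted p = 0.0924), and in the WT response, at -0.28 ± 0.07 (adjusted p = 0.165). The median of all genes was 0.00 in the WT and in the KO response. The type 2 list was compared with the same WT control lungs as the 7 genes, and no values with GC offsets are given for it.

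Single markers of some other cells were called. Of 6 alveolar macrophage markers Marco, a scavenger receptor, was called lower in the WT response and higher in KO than WT lungs at 14 days, and Chil3 higher in KO than WT control lungs. Other members went the opposite way, with Chil3 at 0.20 against Marco at -1.42 in the WT response, and Siglecf at -0.12 against Marco at 0.86 between genotypes at 14 days. Of 7 fibroblast markers the collagen Col1a1 was called lower in the WT response and higher in KO than WT lungs at 14 days, at 0.65 where Tcf21 stood at -0.18. Of 6 cardiac markers the myosin Myh6 was called lower in KO than WT lungs at 14 days, where cardiac markers summed to 575 to 910 CPM in WT and 447 to 559 in KO 14-day lungs. There Myh6 stood at -0.66 and Myl7, Tnnt2 and Tnni3 at -0.40, -0.57 and -0.51, while Actc1 stood at -0.08 and Nppa at 0.56. No airway, B cell or tumor epithelial marker was called. Their part in the values of the 7 genes was not tested.

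Within groups the 7 genes hardly rose and fell together. For each lung the deviation from its group mean in log2 CPM was taken, and over the 20 lungs 0 of 21 pairs of genes were related after adjustment. By Pearson's r on CPM the nearest was Ager with Aqp5, with r = 0.52 (permutation p = 0.0408, adjusted p = 0.553) and rho = 0.56 (permutation p = 0.0321, adjusted p = 0.338), and r = 0.46 without the 2 lungs farthest in Ager. These are the 2 genes of high GC content. By rank the nearest was Akap5 with Emp2, with rho = 0.57 (permutation p = 0.0212, adjusted p = 0.338) and r = 0.45 (permutation p = 0.105, adjusted p = 0.553), and r = 0.57 without the 2 lungs farthest in Akap5. On log2(FPKM + 1) this pair led by both measures, with r = 0.57 (adjusted permutation p = 0.457) and rho = 0.69 (adjusted permutation p = 0.107). Hopx with Emp2 had r = -0.45 (adjusted permutation p = 0.553). Against the mean of the other 6, r was -0.03 for Pdpn, 0.10 for Hopx, 0.14 for Emp2, 0.20 for Rtkn2 and for Akap5, 0.43 for Aqp5 and 0.45 for Ager.

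**Figure D5:**
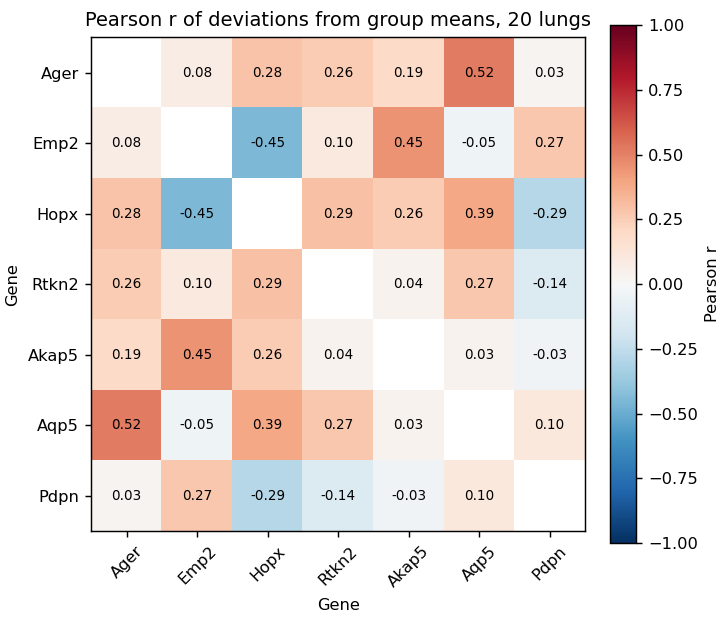
Pearson r between the deviations of the 7 genes from their group means of log2 CPM over 20 lungs, each cell a pair of genes, from blue (negative) to red (positive). The values run from -0.45 to 0.52 and none passes after adjustment over 21 pairs.

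Akap5 was related to endothelial markers. Of 77 relations between the 7 genes and 9 marker lists, the GC trend and the total counts, 2 passed after adjustment: Ager with the GC trend, above, and Akap5 with the mean deviation of 8 endothelial markers, at r = 0.75 (permutation p = 0.00015, adjusted p = 0.0116) and rho = 0.81 (permutation p = 0.00011, adjusted p = 0.00501) over 20 lungs, and r = 0.82 without the 2 lungs farthest in Akap5. With the mean of the other 6 members Akap5 had r = 0.20 and with the 17 other type 1 genes r = 0.11 (adjusted permutation p = 0.802), and the difference between these relations was not tested. No member's relation with the 17 genes passed. Endothelial markers summed to 2862 to 3209 CPM over all lungs and none was called in a comparison of lungs. Plvap, a protein of endothelial diaphragms, met the FDR limit alone between control genotypes, at -0.47 ± 0.12 (adjusted p = 0.22). Car4 met it alone in the other direction between genotypes at 14 days, at 0.20 ± 0.05 (adjusted p = 0.2185). The points share their libraries, and TMM scaling with it.

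The 10 other genes whose deviations were most like the mean deviation of the 7, among 15003 genes with at least 1 FPKM in lung, were Syde1 (r = 0.85), Prep (0.84), Agpat3 (0.77), Krt7 (0.77), Eps15l1 (0.75), Shb (0.75), Rapgef1 (0.74), Dusp3 (0.73), Fam213a (0.73) and Tgfb1i1 (0.73), each over 20 lungs and ranked for this likeness. Of these 10 genes 9 had a GC content above the median of the tested genes, from 49.7% for Dusp3 to 58.2% for Shb, and Prep had 46.3%; the part of the GC trend in the likeness was not tested. Krt7, a keratin of simple epithelia, is the one of them that the list of other type 1 genes holds, at 52.0 FPKM. The mean deviation was not scaled by the spread of each gene. The within-group s.d. of Pdpn, 0.24 on the log2 scale, was the largest of the 7, against 0.08 to 0.16 for the others. The part of Pdpn in the likeness was not tested. Col4a3 and Col4a4, the paired collagen chains of the alveolar basement membrane, ranked 194 and 334 (r = 0.58 and 0.53), and Vegfa 708, with the type 2 marker Sftpb (r = 0.49) between Col4a4 and Vegfa, whereas Cav1 ranked 13159 (r = -0.32) and Cldn18, a tight junction gene of the type 1 cell, 7273 (r = 0.01).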

How the data were processed

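RNA of 20 lungs and 12 primary tumors was sequenced from stranded, paired-end mRNA libraries. The authors aligned reads to mm10 (GRCm38) with STAR and deposited expected counts per gene from RSEM, as whole numbers without normalization, and FPKM, scaled for length and library size. Whether the counting used strand is not given in the sources used here. Groups came from the labels, and 0 columns were left unused.

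Counts were tested with the quasi-likelihood test of edgeR 4.0.16 (R 4.3.3; TMM, filterByExpr, Benjamini-Hochberg adjustment over all genes), in a fit of the 20 lungs and a fit of the 24 14-day samples, with 1 mean per group. SE is the log2 difference divided by the square root of F. The replicate number was not a block. The members and gene lists were chosen with earlier results of these data known. Named were the 7 members in every comparison, Clic4, of each list the genes past the limits and otherwise those with the smallest p (not all of these are printed), and the 10 genes most like the members; other genes of a list are named as examples chosen after their values were seen.

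FPKM levels were described without a test. Relations within groups used permutation tests, two-sided, with 100000 resamples within groups (Python 3.11.15, numpy 2.4.6, scipy 1.17.1), adjusted over 21 pairs and over 77 relations. GC content came from GENCODE M21 transcripts. Alternatives were DESeq2 1.42.0, limma 3.58.1 on log2(FPKM + 1) and log2(FPKM + 0.1), RLE size factors, filters, no Rn7s1, Rn7s2 and Rn7sk, the replicate block, only the compared groups, an FDR of 0.05, and each sample left out; offsets from a loess trend over GC (span 0.5), alone and with the block, were added after seeing the data. The fits were tested on simulated data. The p-values of the group comparisons set a difference against the spread between these samples.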

Additional observations from a re-analysis of the deposited data

Results flagged for a closer look

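In 42 sets of 1 gene in 1 group, 4 held a sample whose gap to its nearest neighbour was a large part of the group's range by Dixon's criterion, where chance gives about 1 in 20. Hopx in WT 14-day lungs had its highest library, replicate 3, at 236.8 CPM, with the next at 209.2. Hopx in tumors of KO hosts had replicate 1 at 6.42 CPM, with the next at 3.03. Rtkn2 in KO control lungs had replicate 4 at 285.7 CPM, with the next at 250.4, and Akap5 in KO 14-day lungs had its lowest library, replicate 2, at 504.3 CPM, with the next at 578.5. With any one of the 3 lung libraries left out, no gene of the 7 passed the limits between lung groups.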

How the results depend on the processing

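In the lungs, no gene of the 7 was called under any alternative run. Of 701 gene-level values with another setting, 676 kept direction and side of the limits and 25 changed sign, none of them called. In the tumor comparisons, a minimum of 10 counts in every sample left 4 of the 7 genes to test (Akap5, Aqp5, Emp2 and Pdpn), and all 4 were called in WT and in KO hosts; 7 were called under the others. GC offsets moved the median of all genes by 0.24 in WT and 0.21 in KO hosts, and in WT hosts 3367 of 6479 called genes were then higher in tumors, against 2555 of 6143 without them.

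The replicate numbers did not meet the criterion for pairs (every pair over 0.1): same-numbered 14-day KO and WT lungs correlated at -0.12 to 0.27, with 2 of 6 over 0.1, and the largest share best matched by its own number between lung groups was 2 of 4. KO 14-day lungs and KO-host tumors of the same number correlated at 0.036 to 0.20, with 3 of 6 over 0.1 and 4 of 6 best with their own number, a hint from the data and not the design; with the block 6000 genes were called there, against 5982, and all 7 members. The block turned Akap5 in the WT response to -0.0188, gave Rtkn2 there 0.23 (adjusted p = 0.23, under 1.5-fold), changed no call of a member, and moved the count of all called genes from 92 to 152 there and from 42 to 129 in the KO response. With GC offsets, alone and with the block, Akap5 in the WT response was -0.0382 and -0.0523, Ager in the KO response -0.0871 and -0.0972, Hopx 0.0124 and 0.0244, Aqp5 -0.0045 and -0.0142, Rtkn2 between control genotypes -0.0129 and -0.0165, the interaction of Ager -0.0617 and -0.0623 and of Akap5 0.0272 and 0.0263, and the averaged genotype difference of Aqp5 0.0025 and 0.0002 and of Emp2 0.0122 and 0.0123. Emp2 in that average was 0.0012 with DESeq2, 0.0009 with RLE, 0.0037 without Rn7s1, Rn7s2 and Rn7sk, and 0.0012 with 10 counts in every sample. Akap5 in the averaged tumor response was 0.0061 and 0.0062 with limma at the 2 pseudocounts. The cause was not tested.

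Leaving out each sample, 33 of 1316 values changed sign. In the KO response the ranges were -0.0114 to 0.077 for Ager, -0.0425 to 0.0035 for Akap5, -0.0322 to 0.0104 for Emp2, -0.0406 to 0.038 for Hopx and -0.1179 to 0.0434 for Pdpn. Akap5 ran from -0.0286 to 0.0357 in the WT response, -0.0293 to 0.006 in the averaged response and -0.0012 to 0.0549 between genotypes at 14 days, Rtkn2 from -0.0482 to 0.0559 between control genotypes, and Emp2 from -0.0164 to 0.0156 in the averaged genotype difference. Over all genes, called numbers ranged from 0 to 176 in the WT response, 2 to 129 in the KO response, 9 to 52 and 2 to 246 between genotypes at 14 days and in controls, 0 to 197 for the interaction, 34 to 158 for the averaged tumor response and 8 to 82 for the averaged genotype difference, against 92, 42, 34, 37, 8, 92 and 38; the count was 176 without WT 14-day replicate 3 in the WT response, 52 without KO 14-day replicate 1 between genotypes at 14 days, 82 without the same library in the averaged genotype difference, and 2 without KO control replicate 2 in the KO response and between control genotypes. No pair of members was related with log2(FPKM + 1) or in the 12 14-day lungs alone. Tumor values of Ager, Hopx and Rtkn2 rest on 2 to 27 counts a sample, which limits their precision.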
